A study of Homo sapiens with 6 samples.

Results

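The genes described here are 9 genes of MHC class I antigen presentation, HLA-B, HLA-C, HLA-E, HLA-F, B2M, TAP1, TAP2, TAPBP and NLRC5, out of 26255 gene symbols with a value in each library. They were matched by symbol alone, with no threshold on a measured value, but the list was chosen with earlier results of these data known. mRNA was sequenced from BxPC-3, an established line of human pancreatic adenocarcinoma, in 3 groups of 2 libraries each at 36 h. The groups were untransfected cells (Parent), cells that received a control duplex (NC-1) and cells that received a duplex of the microRNA miR-4711-5p. All libraries come from this 1 line, and neither the labels nor the methods say that the 2 libraries of a group are separate cultures, so p-values measure only the spread between these libraries. Values are FPKM, fragment numbers that the authors scaled by the length of the exons and by library size before they deposited them.

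MHC class I molecules display short peptides from proteins made inside the cell to CD8 T cells and natural killer cells. Proteasomes cut the peptides, the transporter formed by TAP1 and TAP2 carries them into the endoplasmic reticulum, and tapasin, the product of TAPBP, holds an empty class I molecule beside the transporter until a peptide fits. The molecule itself pairs a heavy chain (HLA-B and HLA-C among the classical chains, HLA-E and HLA-F among the non-classical ones) with beta-2 microglobulin, the product of B2M. NLRC5 is a transcriptional activator that acts at class I promoters, and interferons raise most of these genes in epithelial cells. Carcinomas, pancreatic carcinoma among them, often show little class I at the surface.

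The miRNA under study is printed here because its seed is what was searched for in the transcripts of the 9 genes. In the mature sequence, from RefSeq on GRCh38.p14 (chromosome 1, 59733269 to 59733291, minus strand), the capitals mark bases 2 to 8, the seed.
hsa-miR-4711-5p: uGCAUCAGgccagaagacaugag

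The 6 libraries summed to between 493145 and 550772 FPKM. FPKM keeps no read number, so depth was only estimated relative to the Parent 1 library, from the most common ratio among genes of very low FPKM. In the other libraries, only 29.1% to 37% of these genes lay at that ratio. The estimate was 0.873 in Parent 2, 0.751 and 0.857 in the NC-1 libraries, and 1.08 and 1.21 in the miR-4711-5p libraries. The part of depth in the differences below was not tested. All 8 markers of pancreatic duct epithelium were above 0 in every group, and their sum was 5600 to 6654 FPKM. The 9 leukocyte markers summed to 1.89 to 2.13 FPKM in Parent, 3 to 3.01 in NC-1 and 2.31 to 2.89 in miR-4711-5p, with CD14 the highest at up to 2.18 and 1 or 2 of the 9 markers at 0 in both libraries of a group. The 8 stromal markers summed to 2.64 to 3.26 FPKM in Parent, 5.36 to 5.98 in NC-1 and 2.70 to 2.89 in miR-4711-5p, where CDH5, a cadherin of endothelium, gave the higher NC-1 sum with 3.16 and 2.88 FPKM. The part of these markers in the class I values was not tested.

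On GRCh37, 7 of the 9 genes lie in the MHC region of chromosome 6, HLA-F at chr6:29690552-29706305, HLA-E at chr6:30457286-30461971, HLA-C at chr6:31236526-31239907, HLA-B at chr6:31321649-31334844, TAP2 at chr6:32789610-32806516, TAP1 at chr6:32812986-32821593 and TAPBP at chr6:33267471-33282061. B2M lies at chr15:45003556-45011049 and NLRC5 at chr16:57023397-57117443. HLA-F overlaps the antisense gene HLA-F-AS1 in the annotation.

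All 9 genes passed the filter of a mean of at least 1 FPKM that 12040 genes passed, and each was above 1 FPKM in every library. Differences were tested with limma on log2(FPKM + 1), adjusted over the 12040 genes with the Benjamini-Hochberg method at 0.05. In cells with miR-4711-5p, 4 of the 9 genes were higher than with NC-1 (HLA-F, TAP1, NLRC5 and HLA-B) and none was lower. Over all genes in that comparison, 18.4% were called higher and 21.2% lower. The median difference of the 9 genes was 0.18 on the log2 scale, and that of all genes was 0.00. The median moved by at most 0.01 when libraries were rescaled by their median ratio.

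Against Parent, 6 of the 9 genes were higher with miR-4711-5p (HLA-F, NLRC5, TAP1, HLA-B, HLA-C and TAPBP) and none was lower, where 18.7% of all genes were called higher and 24.7% lower. The control duplex alone went with higher values of 5 of the 9 genes (HLA-B, NLRC5, TAPBP, HLA-C and B2M) against Parent, where 12.1% of all genes were called higher and 15.1% lower. That count fell to between 1 and 3 with any 1 library left out, to 2 without the trend in limma and to 0 with a minimum fold of 1.5. With that minimum fold, 3 of the 9 genes were called for miR-4711-5p against NC-1, without HLA-B. Against Parent 4 were called, without HLA-C and TAPBP. The comparisons share libraries, so their counts are not independent of each other. In 6 of the 9 genes (HLA-B, HLA-C, HLA-E, HLA-F, TAP1 and NLRC5) both miR-4711-5p libraries lay above all 4 control libraries, which held for 23.8% of all genes tested.

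**Figure D1:**
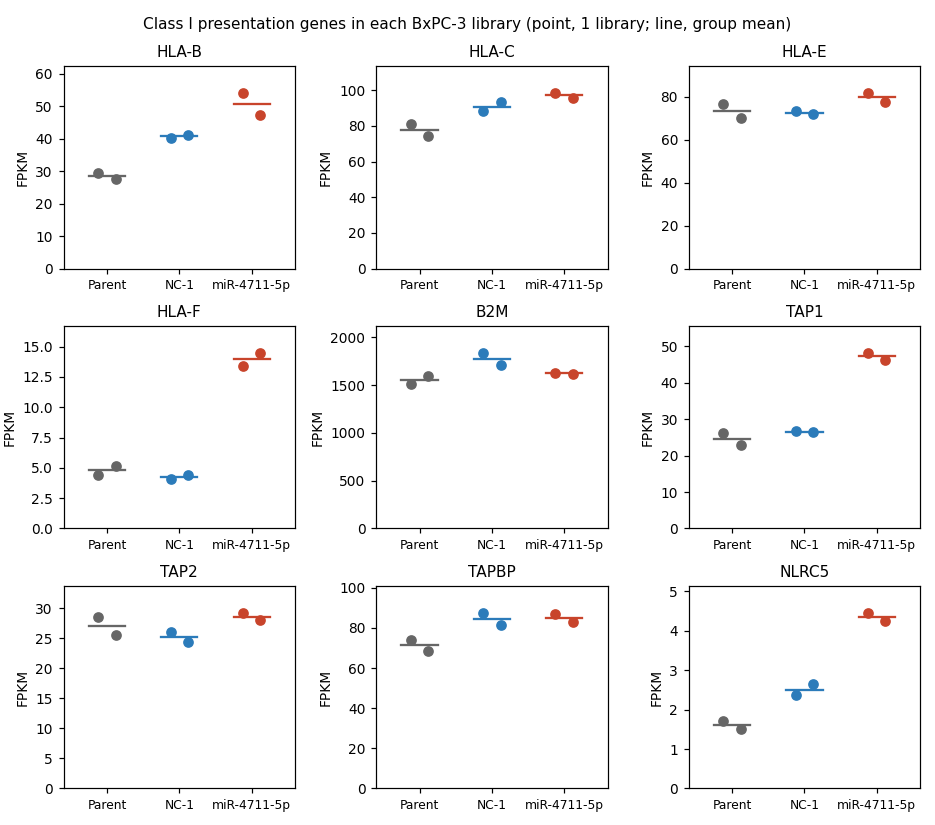
FPKM of the 9 genes (y axis, from 0) in each library of the 3 groups (x axis), with a point for each library and a line at the group mean. HLA-F, TAP1 and NLRC5 show a gap between the miR-4711-5p libraries and all control libraries, while HLA-B and NLRC5 were also higher in NC-1 than in Parent.

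HLA-F, a non-classical heavy chain that receptors of natural killer cells bind, moved most. It was at 4.45 and 5.16 FPKM in Parent, 4.09 and 4.41 in NC-1, and 13.4 and 14.5 in miR-4711-5p. The lower of the miR-4711-5p libraries was above the highest control by more than the controls differed among themselves. The mean was 3.29 times that of NC-1 (log2 difference 1.51 ± 0.08 SE, 95% interval 1.31 to 1.71, limma adjusted p = 2.42e-05) and 2.91 times that of Parent (1.37, adjusted p = 3.05e-05). Ranked by log2 difference among the 12040 genes, HLA-F stood at place 54 against NC-1 and at place 108 against Parent. NC-1 and Parent differed by -0.14 (interval -0.34 to 0.05, adjusted p = 0.24).

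HLA-B, a classical heavy chain, was lowest in Parent at 29.5 and 27.5 FPKM, between in NC-1 at 40.3 and 41.1, and highest in miR-4711-5p at 54.1 and 47.2. No 2 groups overlapped. With miR-4711-5p the mean was 1.78 times that of Parent (log2 difference 0.80 ± 0.07 SE, limma adjusted p = 0.000175), and 1.24 times that of NC-1 (0.31 ± 0.07, interval 0.14 to 0.47, adjusted p = 0.0136). NC-1 was at 1.43 times Parent (0.50 ± 0.07, adjusted p = 0.0041). The call against NC-1 was lost with a minimum fold of 1.5. It was also lost without the first NC-1 library (log2 difference 0.29), without the second (0.32) and without the first miR-4711-5p library (0.21).

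HLA-C, the other classical heavy chain, followed the same order in smaller steps. Its values were 81.1 and 74.4 FPKM in Parent, 88.2 and 93.2 in NC-1, and 98.6 and 95.9 in miR-4711-5p. The groups did not overlap, but the step from NC-1 to miR-4711-5p did not pass the test (log2 difference 0.10, interval -0.03 to 0.23, limma adjusted p = 0.193). The differences from Parent did, at 0.32 for miR-4711-5p (adjusted p = 0.00351) and at 0.22 for NC-1 (adjusted p = 0.0272), the latter lost under 9 of the 14 alternative settings, among them each left-out library other than the first of Parent (adjusted p of 0.0574 to 0.117).

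HLA-E, the other non-classical heavy chain, was level at 76.5 and 70.0 FPKM in Parent and 73.1 and 72.0 in NC-1. With miR-4711-5p it was 81.8 and 77.7, above the highest control by little more than 1 FPKM. The difference from NC-1 was 0.13 (interval 0.00 to 0.26, limma adjusted p = 0.0937), and none of the 3 comparisons passed the test. HLA-B, HLA-C, HLA-E and HLA-F are close copies of each other with related pseudogenes and with alleles that differ from the reference genome, and how reads that match several copies were counted is not given in the sources used here, so the split between them is uncertain.

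B2M, the light chain that every class I molecule needs, was by far the most abundant of the 9. It was at 1516 and 1598 FPKM in Parent, 1840 and 1714 in NC-1, and 1631 and 1619 in miR-4711-5p. The highest values were those of NC-1, which was 0.19 above Parent on the log2 scale (limma adjusted p = 0.0273). That call was lost under 9 of the 14 alternative settings, among them each left-out library other than the second of NC-1 (adjusted p of 0.0618 to 0.164). With miR-4711-5p it was 0.13 below NC-1 (-0.13, interval -0.24 to -0.01, adjusted p = 0.0719) and did not pass the test, except without the second NC-1 library (-0.18, adjusted p = 0.0423). In no comparison with miR-4711-5p was B2M called higher.

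TAP1 and TAP2, the subunits of the peptide transporter, differed in their response. TAP1 was at 26.3 and 22.9 FPKM in Parent, 26.6 and 26.4 in NC-1, and 48.2 and 46.2 in miR-4711-5p. The NC-1 libraries lay just above those of Parent, while both miR-4711-5p libraries were well above them. The mean was 1.78 times that of NC-1 (log2 difference 0.81 ± 0.07 SE, interval 0.65 to 0.97, limma adjusted p = 0.000164) and 1.92 times that of Parent (0.92, adjusted p = 7.59e-05), and NC-1 and Parent differed by 0.11 (adjusted p = 0.277). Its gene lies on the minus strand and overlaps in the GENCODE annotation with PSMB9 on the other strand, and whether counting used strand is not given in the sources used here.

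TAP2 was at 28.5 and 25.6 FPKM in Parent, 26.0 and 24.4 in NC-1, and 29.3 and 28.0 in miR-4711-5p. The miR-4711-5p and Parent libraries overlapped. The difference from NC-1 was 0.18 (interval 0.02 to 0.33, limma adjusted p = 0.0689), and it was past the threshold under 3 of the 14 alternative settings. Within each library, TAP1 was 0.922 and 0.894 times TAP2 in Parent, 1.02 and 1.08 times in NC-1, and 1.65 times in both miR-4711-5p libraries.

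TAPBP, which encodes tapasin, was higher in both transfected groups than in Parent. It was at 73.9 and 68.7 FPKM in Parent, 87.6 and 81.5 in NC-1, and 87.1 and 83.0 in miR-4711-5p. Both transfected groups lay above Parent and overlapped with each other. The difference from Parent was 0.25 for miR-4711-5p (limma adjusted p = 0.0117) and 0.24 for NC-1 (adjusted p = 0.0226), and the difference between the transfected groups was 0.01 (interval -0.13 to 0.15, adjusted p = 0.918). The call of miR-4711-5p against Parent was lost without the second Parent library (adjusted p = 0.0662) and without the first miR-4711-5p library (0.0873), and that of NC-1 under 5 of the 14 alternative settings, among them without the second Parent library (0.0999) and without the first NC-1 library (0.109).

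NLRC5, the transcriptional activator of the class I genes, was the least abundant of the 9. It was at 1.71 and 1.52 FPKM in Parent, 2.36 and 2.65 in NC-1, and 4.46 and 4.25 in miR-4711-5p, with no overlap between any groups. The mean with miR-4711-5p was 1.74 times that of NC-1 and 2.70 times that of Parent. On the log2(FPKM + 1) scale, which understates changes at such low values, the differences were 0.61 ± 0.09 SE (interval 0.39 to 0.84, limma adjusted p = 0.00225) and 1.04 ± 0.09 (adjusted p = 0.00019). NC-1 was 0.42 above Parent (adjusted p = 0.0179), a call lost without either Parent library or without the second NC-1 library, at adjusted p of 0.05 to 0.072.

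**Figure D2:**
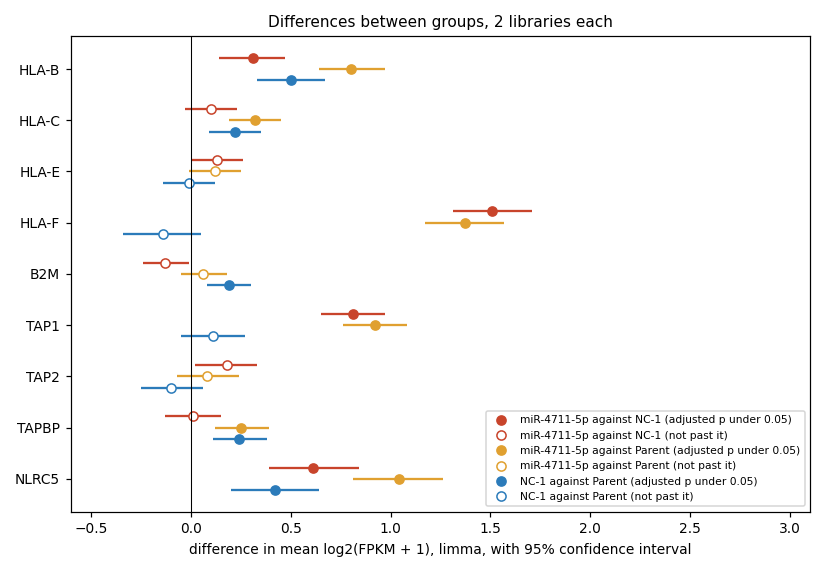
Difference in mean log2(FPKM + 1) (x axis) for the 9 genes (y axis) in the 3 comparisons of groups of 2 libraries, with limma 95% confidence intervals as lines and filled points where the adjusted p was under 0.05. HLA-F and TAP1 lie far to the right in both comparisons of miR-4711-5p and near 0 for NC-1 against Parent, and the points of TAPBP for miR-4711-5p against NC-1 lie at 0.01.

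Compared by FPKM, which accounts for gene length, the order of the levels in Parent was B2M (mean 1557 FPKM), then HLA-C (77.8), HLA-E (73.3) and TAPBP (71.3), whose libraries overlapped from one to the next, then HLA-B (28.5), TAP2 (27.0) and TAP1 (24.6), which also overlapped, then HLA-F (4.81) and NLRC5 (1.61). In NC-1 no neighbours in the order overlapped, with TAPBP (84.6 FPKM) above HLA-E (72.6) and HLA-B (40.7) above TAP1 (26.5) and TAP2 (25.2). With miR-4711-5p, HLA-B (50.7 FPKM) and TAP1 (47.2) overlapped with each other and both stood clear of TAP2 (28.6). HLA-F, at a mean of 14.0 FPKM, and NLRC5, at 4.36, kept the last places. Set against NC-1, the means of the 4 most abundant genes with miR-4711-5p had ratios of 0.915 (B2M) to 1.10 (HLA-E), while the least abundant, HLA-F and NLRC5, had ratios of 3.29 and 1.74.

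The levels of the heavy chains relative to the light chain shifted as well. The summed FPKM of HLA-B, HLA-C, HLA-E and HLA-F was 192 and 177 in Parent, 206 and 211 in NC-1, and 248 and 235 in miR-4711-5p. B2M was 7.91 and 9.02 times this sum in Parent, 8.94 and 8.13 times in NC-1, and 6.58 and 6.88 times in miR-4711-5p, so that the miR-4711-5p libraries lay below all 4 controls. HLA-B reached 0.549 and 0.492 of the level of HLA-C with miR-4711-5p, against 0.457 and 0.441 in NC-1 and 0.364 and 0.370 in Parent. HLA-F stayed a minor chain, at 0.164 and 0.187 of the level of HLA-E with miR-4711-5p and at 0.0559 to 0.0736 in the controls.

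**Figure D3:**
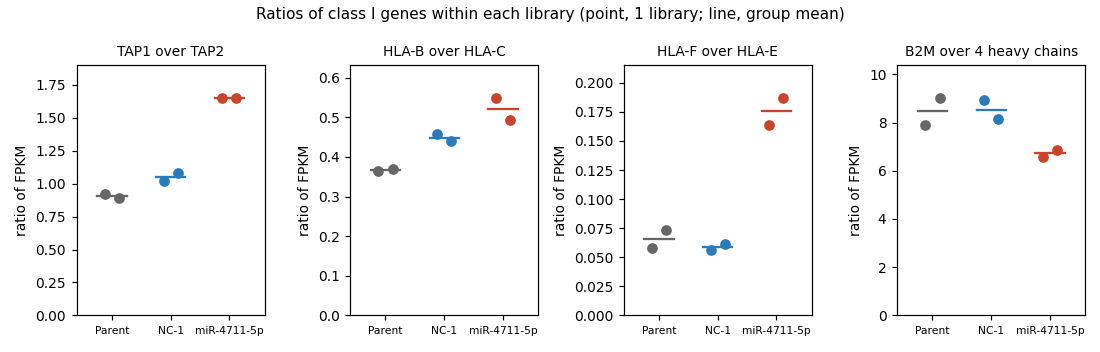
Ratios of FPKM between class I genes within each library (y axes, from 0) in the 3 groups (x axes), with a point for each library and a line at the group mean; the 4 heavy chains are HLA-B, HLA-C, HLA-E and HLA-F. The TAP1 to TAP2 ratio is 1.65 in both miR-4711-5p libraries and at most 1.08 in the controls, and B2M relative to the heavy chains is lowest with miR-4711-5p.

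Genes that supply peptides to the pathway moved in both directions against NC-1, with 2 of 11 tested genes higher and 2 lower, shares close to the 18.4% and 21.2% of all genes. PSMB9 and PSMB8, catalytic subunits of the immunoproteasome, were the ones that rose. PSMB10, another catalytic subunit of the immunoproteasome, named here after its values were seen, was not called. Its difference was -0.07 from NC-1 (limma adjusted p = 0.391) and 0.05 from Parent (adjusted p = 0.509). PSMB9 was at 15.1 and 14.2 FPKM in Parent, 14.5 and 16.3 in NC-1, and 19.4 and 21.5 in miR-4711-5p (0.39 against NC-1, limma adjusted p = 0.00724). PSMB8 was at 51.6 and 45.6 FPKM in Parent, 50.5 and 51.7 in NC-1, and 66.0 and 66.9 in miR-4711-5p (0.37, adjusted p = 0.00326). Both lie next to TAP1 and TAP2 on chromosome 6. The peptidases TPP2 (-0.34, adjusted p = 0.00345) and ERAP2 (-0.23, adjusted p = 0.00638) fell against NC-1. ERAP2 was not called against Parent (-0.04, adjusted p = 0.45), and NC-1 was above Parent (0.18, adjusted p = 0.0239). The proteasome activator subunits PSME2 and PSME1, the most abundant of the list, differed from NC-1 by 0.19 (adjusted p = 0.0523) and 0.06 (adjusted p = 0.442).

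Chaperones that fold and load class I molecules went the other way. Of 7 tested, 5 fell against NC-1 and 1 rose, with a median of -0.34, where 21.2% of all genes were called lower and 18.4% higher. The counts were the same against Parent, where the median was -0.30 and the shares of all genes were 24.7% and 18.7%. The largest fall was that of TAPBPL, the tapasin-related peptide editor, from 27.6 and 30.1 FPKM in NC-1 to 18.8 and 19.3 (-0.57, limma adjusted p = 0.000327). Against Parent the TAPBPL difference was -0.38 (adjusted p = 0.00192), and NC-1 was above Parent (0.20, adjusted p = 0.0412). CANX, the lectin chaperone calnexin, fell from 206 and 211 FPKM to 157 and 156 (-0.41, adjusted p = 0.000525), and CALR, the related calreticulin of the loading complex, from 734 and 745 to 639 and 658 (-0.19, adjusted p = 0.00738). UGGT1 (-0.38) and GANAB (-0.34), enzymes of glycoprotein folding, also fell, and are named here after their values were seen. PDIA3, the disulfide isomerase of the loading complex, differed by -0.11 (adjusted p = 0.0525), and HSPA5, the general chaperone BiP, rose by 0.18 (adjusted p = 0.0163).

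Of 11 tested class I-like genes, 1 rose against NC-1 and 3 fell, where 18.4% of all genes were called higher and 21.2% lower. Ligands of the activating receptor NKG2D went in different directions, as MICA rose from 25.3 and 25.4 FPKM in NC-1 to 34.2 and 35.5 (0.44, limma adjusted p = 0.000445), RAET1E fell from 9.57 and 9.66 to 4.88 and 5.63 (-0.77, adjusted p = 0.000706), and RAET1G fell from 11.3 and 12.5 to 6.89 and 7.89 (-0.63, adjusted p = 0.00176). Against Parent the differences were 0.73 for MICA (adjusted p = 3.85e-05), -0.38 for RAET1E (adjusted p = 0.0127) and -0.90 for RAET1G (adjusted p = 0.000302). NC-1 was itself above Parent in MICA (0.29, adjusted p = 0.00639) and RAET1E (0.38, adjusted p = 0.0218). ULBP2, another ligand of NKG2D, differed from NC-1 by 0.22 (adjusted p = 0.0712). PROCR, the endothelial protein C receptor with a class I-like fold, was at 40.5 and 36.4 FPKM in NC-1 and fell to 32.1 and 33.4 (-0.22, adjusted p = 0.0232).

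Among 16 tested transcription factors that bind class I promoters or act upstream of NLRC5, 5 rose against NC-1 and 3 fell, beside 18.4% and 21.2% of all genes. IRF9, the DNA-binding subunit of the factor that type I interferon activates, was at 26.7 and 26.0 FPKM in Parent, 36.5 and 38.5 in NC-1, and 79.6 and 75.4 in miR-4711-5p (1.03 against NC-1, limma adjusted p = 1.64e-05). STAT2, another subunit of that factor, was at 15.5 and 15.7 FPKM in Parent, 18.3 and 18.4 in NC-1, and 38.2 and 34.4 in miR-4711-5p (0.94, adjusted p = 4.26e-05). Both showed no overlap between any groups. Subunits of the factors NF-Y and RFX, with which NLRC5 works at class I promoters, moved in both directions against NC-1. NFYC (-0.56, adjusted p = 0.000491) and RFX5 (-0.31, adjusted p = 0.00884) fell, while RFXANK (0.32, adjusted p = 0.0186) and NFYA (0.17, adjusted p = 0.0499), named after their values were seen, rose. RFXANK was not called against Parent (-0.02, adjusted p = 0.847), and NC-1 was below Parent (-0.34, adjusted p = 0.0223). RFX5 was at 16.0 and 16.0 FPKM in Parent, so that the fall was relative to 23.8 and 21.3 in NC-1, and it was not called against Parent (0.16, adjusted p = 0.0946). IRF3 differed from NC-1 by -0.02 (adjusted p = 0.693) and the NF-kappaB subunit RELA by 0.05 (adjusted p = 0.461), and IRF1, a well-known activator of class I genes named here after its values were seen, was between 20.7 and 23.0 FPKM in all 6 libraries.

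In the interferon gamma receptor pathway, 3 of 7 tested genes rose against NC-1 and none fell, beside 18.4% and 21.2% of all genes. SOCS3, a feedback inhibitor of JAK kinases, rose from 3.60 and 4.95 FPKM in NC-1 to 8.71 and 9.18 (0.93, limma adjusted p = 0.00284). JAK1 (0.15, adjusted p = 0.0241) and the phosphatase PTPN2 (0.16, adjusted p = 0.0431) rose by little, and the receptor chain IFNGR1 differed by -0.04 (adjusted p = 0.535). PTPN2 was not called against Parent (-0.01, adjusted p = 0.917), and NC-1 was below Parent (-0.17, adjusted p = 0.0492). Of 5 tested genes for ubiquitin ligases and their partners that lower surface class I, MARCH4 (0.47, adjusted p = 0.00781) and WWP2 (0.40, adjusted p = 0.000863) rose and none fell, beside the same shares of all genes, and TMEM127 differed by 0.03 (adjusted p = 0.67). None of the 13 MHC class II genes passed the filter. Their sum was 1.13 to 1.92 FPKM in each library, with CD74, the invariant chain, the highest at up to 1.09, and HLA-DOB next at up to 0.753.

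**Figure D4:**
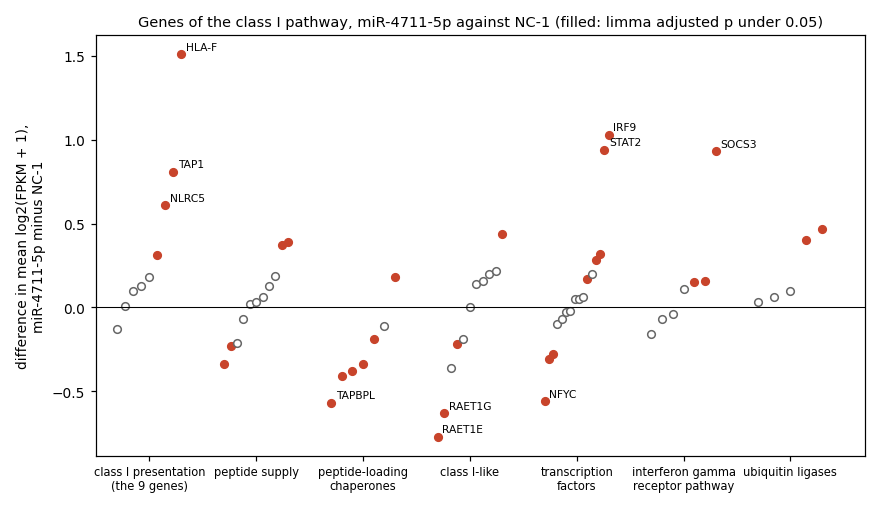
Difference in mean log2(FPKM + 1) between miR-4711-5p and NC-1 (y axis) for each tested gene of the 9 class I genes and of 6 related lists (x axis), filled where the limma adjusted p was under 0.05. The transcription factors IRF9 and STAT2 stand near TAP1, and 5 of 7 chaperones lie below 0 as filled points.

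Seed matches for miR-4711-5p were searched in the protein-coding transcripts of the 9 genes in GENCODE on GRCh37, the same build as the hg19 of the files. The letters searched on the sense strand were CTGATGC, opposite bases 2 to 8, and TGATGCA, opposite bases 2 to 7 with an A behind. In the canonical 3′ UTR, 3 of the 9 genes held a match (TAP1, TAP2 and NLRC5), where 17.2% of 10568 tested genes with such a transcript did. The matches lie at chr6:32813131-32813137 in TAP1, chr6:32793838-32793844 in TAP2, both on the minus strand, and chr16:57116474-57116480 on the plus strand in NLRC5. They are shown in capitals with 8 bases on either side, because TAP1 and NLRC5 are among the genes that were higher with the miRNA.
TAP1: agccagggCTGATGCtttggtgt
TAP2: gcttgagtCTGATGCcatctaat
NLRC5: cagccaagTGATGCAcccaaatg

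The match was in all 5 coding transcripts of TAP1, in 5 of 7 of TAP2 and in 3 of 9 of NLRC5. TAP2 and TAPBP held a further match in the coding sequence. HLA-B, HLA-C, HLA-E, HLA-F and B2M held neither run of letters in the coding sequence or 3′ UTR of any coding transcript searched, which says only that these letters are not there. Of the genes with a 3′ UTR match, none was called lower with miR-4711-5p, whether against NC-1 or against Parent.

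Promoters of the 9 genes were compared because TAP1, HLA-F and HLA-B were higher together while TAP2, TAPBP and B2M were not called against NC-1. RefSeq windows from 250 bases before to 50 after the transcription start on GRCh38.p14 were found for 7 of the 9 genes, HLA-B, HLA-C, HLA-F, B2M, TAP1, TAP2 and TAPBP. The motif searched was GAAA, any 2 bases and GAAA again, the core of the interferon-stimulated response element, which lies on either strand in 3.57% of 35116 promoter windows of this length. The 170 bases before each start are printed with the matches in capitals, and a match on the other strand starts and ends in TTTC.
HLA-B: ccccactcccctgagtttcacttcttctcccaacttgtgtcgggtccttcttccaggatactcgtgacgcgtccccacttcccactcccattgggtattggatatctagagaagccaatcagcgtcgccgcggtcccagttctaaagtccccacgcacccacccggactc
HLA-C: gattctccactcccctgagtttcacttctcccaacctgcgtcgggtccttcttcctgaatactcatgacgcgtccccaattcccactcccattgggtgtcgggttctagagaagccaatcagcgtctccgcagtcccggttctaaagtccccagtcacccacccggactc
HLA-F: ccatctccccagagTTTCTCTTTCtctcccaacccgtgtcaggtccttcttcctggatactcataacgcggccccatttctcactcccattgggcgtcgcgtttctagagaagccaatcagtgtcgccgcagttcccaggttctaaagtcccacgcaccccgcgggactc
B2M: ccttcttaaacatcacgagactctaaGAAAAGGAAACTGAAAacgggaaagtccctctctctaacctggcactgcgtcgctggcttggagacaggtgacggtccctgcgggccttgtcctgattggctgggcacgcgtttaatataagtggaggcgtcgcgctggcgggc
TAP1: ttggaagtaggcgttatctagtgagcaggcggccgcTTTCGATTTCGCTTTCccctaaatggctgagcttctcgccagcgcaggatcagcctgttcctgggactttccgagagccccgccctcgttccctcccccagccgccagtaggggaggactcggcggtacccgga
TAP2: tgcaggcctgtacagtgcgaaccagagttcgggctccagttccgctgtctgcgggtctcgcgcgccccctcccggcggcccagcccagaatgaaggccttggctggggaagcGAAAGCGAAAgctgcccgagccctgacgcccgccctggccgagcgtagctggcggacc
TAPBP: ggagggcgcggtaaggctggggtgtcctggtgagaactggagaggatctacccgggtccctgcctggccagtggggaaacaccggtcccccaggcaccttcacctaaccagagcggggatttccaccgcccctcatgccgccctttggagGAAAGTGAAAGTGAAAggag

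These stretches lie at chr6:31357180-31357349 (HLA-B), chr6:31272093-31272262 (HLA-C), chr6:32853705-32853874 (TAP1, the more upstream of 2 RefSeq starts), chr6:32838740-32838909 (TAP2) and chr6:33314079-33314248 (TAPBP) on the minus strand, and at chr6:29723264-29723433 (HLA-F) and chr15:44711347-44711516 (B2M) on the plus strand. A match to the interferon motif was present in 5 of the 7 windows. In TAP1, B2M and TAPBP there were 2 matches that overlapped each other by 4 bases, and HLA-F and TAP2 had 1 each. Genes with a match included the strongly higher HLA-F and TAP1 as well as TAP2, TAPBP and B2M, which were not called against NC-1. HLA-B, which was called, and HLA-C held no exact match to these letters in the window. Looser forms of the element were not searched, so the search cannot tell whether the promoters of HLA-B and HLA-C carry one.

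The CCAAT letters of the Y box, bound by NF-Y and present in 34.6% of all windows, were found in HLA-B, HLA-C, HLA-F, B2M and TAP1 on either strand. A match to the NF-kappaB motif, found in 5.91% of all windows, was present in HLA-B, HLA-C, B2M, TAP1 and TAPBP, with 2 overlapping matches in HLA-B. The letters TTCNNNGAA of the GAS element, a site of interferon gamma response,, found in 7.66% of all windows, were absent from these 7 windows and present once in that of the second TAP1 start. All of these are matches of letters, and binding was not measured.

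**Figure D5:**
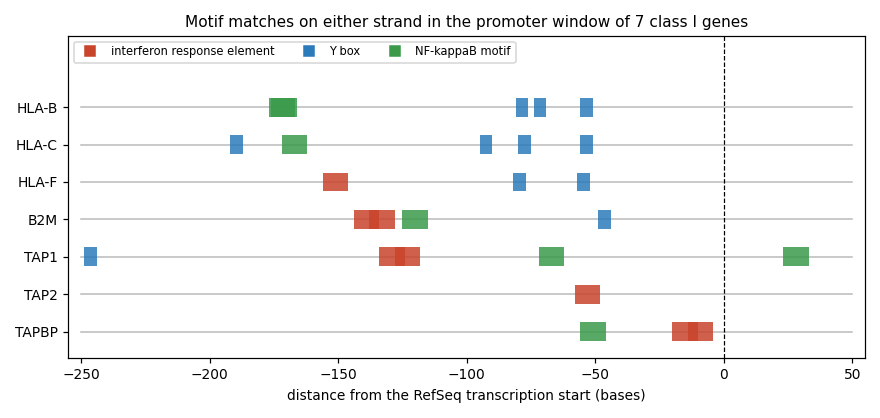
Positions of motif matches on either strand (coloured boxes) along the promoter windows of 7 class I genes (rows), with distance in bases from the RefSeq start on the x axis and the start as a dashed line. Matches to the searched core letters of the interferon response element lie between positions -156 and -119 in HLA-F, B2M and TAP1. They lie nearer to the start in TAP2 and TAPBP. The windows of HLA-B and HLA-C hold no exact match to these letters, and looser forms of the element were not searched.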

How the data were processed

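Per the labels and the methods, the authors made stranded mRNA libraries, mapped single-end reads to hg19 with TopHat2, Bowtie2 and SAMtools and calculated FPKM with Cufflinks tools. The submitters' processing notes name TopHat2 2.1.1, Bowtie2 2.3.5.1, SAMtools 1.2 and Cufflinks 2.2.1, while the methods name other aligner versions; annotation, strand option and library scaling are not given in the sources used here. The deposited FPKM per gene symbol are normalized values, so no count model was used.

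FPKM were analysed as log2(FPKM + 1) with limma 3.58.1 in R 4.3.3 (lmFit, contrasts.fit, eBayes with a trend), with 6 libraries in 1 fit (3 residual and 4.15 prior degrees of freedom), two-sided, for the 12040 genes whose mean over the libraries reached 1 FPKM. An exact permutation test of 2 against 2 libraries cannot go below 0.333. Alternatives were another pseudocount (0.1), filters, rescaling, a replicate block, fits of 2 groups, no trend, a minimum fold of 1.5, and leaving out each library. Tables were handled with Python 3.11.15 and pandas 2.3.3.

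The 9 genes and all lists were chosen with earlier results of these data known. Of each other list, the genes named by rule were those called against NC-1 with the 2 largest rises and 2 largest falls. The rule also took the 2 with the highest mean FPKM and, for nearness of profile, the 5 nearest genes. Genes named outside this rule are marked as named after their values were seen. Some genes of these lists are not reported here.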

Additional observations from a re-analysis of the deposited data

How the results depend on the processing

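Of 375 values of single genes under alternative settings, 331 kept their direction and their side of the threshold. HLA-F, TAP1 and NLRC5 remained called against NC-1 under every alternative that tested them, with limma adjusted p of 7.73e-06 to 0.000947, 5.09e-05 to 0.00458 and 0.00175 to 0.0246. NLRC5 is below the stricter filter of 5 FPKM. With a library left out, the lone library of its group is assumed to vary like the others. The number of the 9 genes called in NC-1 against Parent, 5, was 2 with every gene above 0 tested, 3 with only those groups in the fit, 2 without the trend, 0 with a fold of 1.5, and 1 to 3 with any 1 of the 6 libraries left out (1 without the second Parent library). Over all genes, the fold of 1.5 left 976 calls against NC-1, 1112 of miR-4711-5p against Parent and 298 of NC-1 against Parent. Keeping every gene above 0 left 2165 of the last. Leaving out a library gave 2815 to 4639, 3164 to 5135 and 1355 to 2296 calls in the 3 comparisons, past a 1.5-fold drop without either miR-4711-5p library (2815 and 2991) in the first, without the first miR-4711-5p library (3164) in the second and without any Parent or NC-1 library (1355 to 2154) in the third. The TAPBP difference from NC-1 changed sign with a library left out (-0.04 to 0.06), and the HLA-E difference of NC-1 from Parent with rescaling (0.00) or a library left out (-0.07 to 0.05). Neither was called.

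The labels do not say whether same-numbered libraries share more than a number. Their deviations from the group means correlated at 0.061, 0.00301 and -0.00892, which cannot show whether they shared a day or batch. With the replicate number as a block, 5, 6 and 5 of the 9 genes were called, TAP2 against NC-1 being added (adjusted p = 0.0382), and 4564, 4983 and 2864 of all genes.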

Other observations

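The genes whose profile over the 6 libraries was nearest to the mean profile of the 9 class I genes were ZCCHC3, IDS, TRIM38, GTPBP2 and FBXO10. Nearness was the Euclidean distance between log2(FPKM + 1) values centred on each gene's mean, over all 12040 tested genes that are not among the 9. ZCCHC3, at a distance of 0.0502 (Pearson r = 0.996 over the 6 libraries, as a description), was at 14.4 and 13.7 FPKM in Parent, 15.9 and 15.8 in NC-1, and 20.9 and 21.2 in miR-4711-5p. IDS, the lysosomal enzyme iduronate 2-sulfatase, followed at 0.0576, with 69.9 and 64.6 FPKM in Parent, 74.0 and 76.1 in NC-1, and 101 and 100 in miR-4711-5p. TRIM38, a ubiquitin ligase of the tripartite motif family, was at a distance of 0.063, GTPBP2 at 0.0644 and FBXO10 at 0.0671. In all 5 genes both miR-4711-5p libraries were above the controls, as the choice by nearness fixes.

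Markers of duct epithelium themselves differed between miR-4711-5p and NC-1 in all 8 genes tested, 4 higher and 4 lower. Over all genes, 18.4% were called higher and 21.2% lower. Against Parent, 2 of the markers were called higher, 3 lower and 3 were not called, where the shares of all genes were 18.7% and 24.7%. CEACAM6, a carcinoma-associated adhesion molecule (-0.88, limma adjusted p = 0.000164), and the mucin MUC1 (-0.65, adjusted p = 0.00163) fell most, and CLDN4, a tight-junction claudin (0.45, adjusted p = 0.000524), and the keratin KRT18 (0.33, adjusted p = 0.00172) rose most. The most abundant were KRT7, a keratin of simple epithelia (-0.17, adjusted p = 0.0224), and KRT8, the partner of KRT18 (0.25, adjusted p = 0.0104). Neither was called against Parent (KRT7 -0.09, adjusted p = 0.144, and KRT8 -0.09, adjusted p = 0.233). In KRT8, NC-1 was below Parent (-0.34, adjusted p = 0.00624). Among markers of other cell types, CDH5 was at 0.995 and 0.929 FPKM in Parent, 3.16 and 2.88 in NC-1, and 0.612 and 0.469 in miR-4711-5p (-1.38 against NC-1, adjusted p = 0.000165). COL1A1 was between 1.24 and 2.35 FPKM, and CD3E reached 0.684.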
